A study of Mus musculus with 13 samples.

Results

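The comparison of 1 day with 0 day was made within 5 pairs of libraries of C2C12 cells, a mouse skeletal myoblast line. Each pair holds the 1 day library and the 0 day library that carry the same siRNA and the same replicate letter in their description: siNT C, siNT D, siYBX3 B, siYBX3 C and siYBX3 D. The 5 pairs took 10 of the 13 libraries, and siNT A, siNT B and siYBX3 A at 0 day have no partner at 1 day. Cells were transfected with nontargeting siRNAs (siNT, control KD) or siRNAs to the RNA-binding protein YBX3 (siYBX3, YBX3 KD) and harvested 48 h later. The 0 day cells stayed in medium with 10% fetal bovine serum as proliferating myoblasts, and the 1 day cells were moved after 24 h to medium with 10% horse serum to start differentiation. The numbers in the sample titles disagree with the letters at 1 day, and same-letter libraries were the more alike, so the letters set the pairs.

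When growth signals are withdrawn, C2C12 myoblasts leave the cell cycle, switch on Myog (myogenin) under the control of Myod1, and then build the contractile apparatus and fuse into myotubes. Cell cycle exit comes with lower levels of the E2F-driven S phase genes and of the later mitotic genes. Genes of sterol synthesis and uptake are driven by SREBP2 when sterols are scarce, and genes of retinoid breakdown are induced by retinoic acid.

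The paired libraries held 33451547 to 71811371 counts, and 16590 of 55642 genes were tested. Levels are given as CPM, the counts scaled to a common library size after TMM normalization, and a pair difference is the log2 CPM at 1 day minus that at 0 day. Ybx3 itself was 265 to 348 CPM in the 4 control KD libraries and 28.8 to 70.6 CPM in the 6 YBX3 KD libraries, so the siRNA labels held in all 10. The myoblast markers Myod1, Myf5, Cdh15, Des, Vim and Itga7 were detected throughout, with summed levels of 3715 to 5255 CPM at 0 day and 3930 to 4684 CPM at 1 day. The 13 markers of differentiating myocytes summed to 47.2 to 153 CPM at 0 day and 50.35 to 217 CPM at 1 day. Of these, Mymx and Actc1 stayed under 1 CPM in all 10 libraries. Of markers of other fates, 7 of 10 for adipocytes (Adipoq and Fabp4 among them) and 7 of 12 for osteoblasts and chondrocytes were also under 1 CPM throughout. Other members were expressed, with means of 1416 CPM for Spp1, 54.7 CPM for Sox9 and 20.5 CPM for Pparg. The osteoblast and chondrocyte list summed to 1183 to 1931 CPM at 0 day and 1208 to 2296 CPM at 1 day. The markers of quiescent reserve cells summed to 157 to 211 CPM at 0 day and 187 to 259 CPM at 1 day. In bulk RNA, fewer cells of a type and less RNA per cell cannot be told apart.

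The D pairs differed from the others, and the siNT D pair went against the other 4 pairs for several groups of genes. By the spread of log2 CPM differences over 12909 genes with a mean above 1 CPM, all 10 libraries had a library of the other day as their nearest, and for 3 of the 10 it was their own partner. The 0 day siNT D library was nearest to the 1 day siYBX3 D library (SD 0.42), and the 1 day siNT D library to the 0 day siYBX3 D library (SD 0.46). A nearest library outside the pair was thus not particular to replicate D. Across these genes the siNT D and siYBX3 D differences had a Pearson r of -0.634, against -0.293 to 0.300 for the other 9 combinations of pairs. Results are therefore given for all 5 pairs, without siNT D, and without both D pairs. Whether a label or the cells differed was not tested.

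Over the 5 pairs no gene passed edgeR's quasi-likelihood test at an adjusted p under 0.05 (0% of 16590, smallest adjusted p = 0.9996). At an unadjusted p under 0.05 there were 432 genes (2.60%), 124 higher (0.747%) and 308 lower (1.86%) at 1 day. That is fewer than the 829.5 that uniform p-values would give. DESeq2 with the same pairs called 5 genes, all lower (0.0301%), and limma-voom called 0, with 307 and 1190 genes at an unadjusted p under 0.05. The 95% interval of the log2 fold change reached a median of 0.25 to either side for genes above 1 CPM. The largest number of pair differences above 1.3-fold fell in the D pairs. In siNT D, 3249 genes were higher (19.6%) and 3506 lower (21.1%), and in siYBX3 D, 2853 were higher and 3174 lower. In siNT C, the pair with the fewest, 1519 were higher (9.16%) and 2111 lower (12.7%). All 5 pairs had the same sign for 276 genes that were higher (1.66%) and 472 that were lower (2.85%), and exceeded 1.3-fold in 7 (0.0422%) and 25 (0.151%).

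The smallest DESeq2 adjusted p belonged to Ahnak2, which encodes a large scaffold protein at the cell membrane. It was 109, 200, 178, 218 and 362 CPM at 0 day in siNT C, siNT D, siYBX3 B, siYBX3 C and siYBX3 D. The 1 day levels in the same order were 79.0, 148, 106, 145 and 275 CPM. Every pair was thus lower at 1 day, while the groups overlapped, because the pairs differed more from each other than the days did. Its log2 fold change was -0.53 ± 0.07 (SE, 5 pairs), with an adjusted p of 0.9996 by edgeR and 6.76e-06 by DESeq2. The other DESeq2 calls, named like Ahnak2 after their values were seen, were mt-Nd4 and mt-Nd4l, 2 mitochondrial genes for complex I subunits that overlap at their ends, the pseudogene Ncoa4-ps and the unnamed ENSMUSG00000093574. Ncoa4-ps had 0 counts at 1 day in every pair but siYBX3 D, where it went from 24 to 43 counts. The mt-Nd4 transcript was lower in every pair, by log2 values from -0.18 in siYBX3 B to -0.75 in siNT D (fold change -0.52 ± 0.11). Of 13 mitochondrially encoded mRNAs 12 had a negative log2 fold change, where the median over all tested genes was -0.0036. Of the 13, 4 were lower in all 5 pairs, a pattern of sign that 2.85% of all genes showed. Mitochondrial genes made up 1.42% to 4.40% of the counts of a paired library. The 13 mRNAs can thus move together and are not separate observations. Their medians were -0.42 in siNT C, -0.82 in siNT D and -0.73 in siYBX3 C, but only -0.06 in siYBX3 B and 0.01 in siYBX3 D.

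Several genes of retinoic acid handling differed strongly between the days, in opposite directions in siNT D and in the other pairs. Dhrs3, a dehydrogenase that turns retinaldehyde back to retinol, was 26.1, 29.6, 21.2 and 62.0 CPM at 0 day in siNT C, siYBX3 B, siYBX3 C and siYBX3 D. At 1 day these were 94.3, 75.0, 119 and 273 CPM. In these 4 pairs all 1 day levels lay above all 0 day levels, a pattern that was not counted over all genes. In siNT D the order was turned, with 331 CPM in the library labelled 0 day and 64.7 CPM in that labelled 1 day. The 3 unpaired 0 day libraries held 26.8, 32.8 and 37.0 CPM of Dhrs3, scaled by library total alone. The siNT D library labelled 0 day thus had the highest Dhrs3 level of all 13 libraries.

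Cyp26b1, which breaks down retinoic acid, showed the same order. It was 0.584, 0.882, 0.961 and 1.32 CPM at 0 day and 3.15, 5.46, 2.81 and 8.37 CPM at 1 day in siNT C, siYBX3 B, siYBX3 C and siYBX3 D. In siNT D it was 7.57 CPM at 0 day and 0.623 CPM at 1 day. Rarb, a retinoic acid receptor and target, differed by log2 values of 1.42, 1.20, 1.24 and 1.44 in those 4 pairs and by -0.98 in siNT D. Dhrs3 (chr4:144619245-144654779, plus strand) and Cyp26b1 (chr6:84548396-84570890, minus strand) are given on GRCm39. These genes, and the list they belong to, were chosen after their values were seen.

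With all 5 pairs the log2 fold changes were 1.301 ± 0.71 for Dhrs3, 1.32 ± 0.88 for Cyp26b1 and 0.81 ± 0.39 for Rarb, and none passed the test. Without siNT D they were 1.95 ± 0.18, 2.38 ± 0.22 and 1.35 ± 0.16 over 4 pairs. The adjusted p-values were then 0.0911, 0.0911 and 0.171 by edgeR, and 3.11e-22, 1.88e-13 and 1.09e-05 by DESeq2. That DESeq2 fit was added after the values were seen. Both fits leave out the pair that went the other way for these 3 genes. The p-values thus describe the 4 remaining pairs and are no test of a day effect. Of 21 genes of retinoic acid metabolism and its receptors, 15 were tested, and the same 3 were the only ones DESeq2 called, all higher (0.692% of 17625 genes were). The others were mixed. The receptor Rarg was higher by 0.18 to 0.41 in the 4 pairs and lower by log2 -0.40 in siNT D. The retinol carrier receptor Stra6 and the binding protein Crabp2 were higher at 1 day in siNT C, siYBX3 C and siYBX3 D but not in siYBX3 B (-1.10 and -0.11).

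The same turn in siNT D was seen beyond retinoid genes. There were 135 genes (0.814%) more than 1.3-fold in one direction in the other 4 pairs and more than 1.3-fold in the opposite direction in siNT D. The corresponding counts were 40 with siNT C as the odd pair, 25 with siYBX3 B, 22 with siYBX3 C and 42 with siYBX3 D. No floor on the level was set for these counts, and many of the 135 genes had a mean under 1 CPM. Among the siNT D genes, 81 were higher (0.488%) and 54 lower (0.325%) at 1 day in the 4 pairs. They include Hlf, a PAR bZIP transcription factor, Stab1, a scavenger receptor, and Itgb2, an integrin subunit. Without siNT D their log2 fold changes were 1.55 ± 0.19, 1.54 ± 0.16 and 1.33 ± 0.19, and their differences in siNT D were -3.01, -2.48 and -1.90. The 135 genes were picked by size and sign in these same pairs, so these values describe the selection and test nothing.

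Leaving siNT D out raised the DESeq2 calls from 5 to 191 (122 higher, 0.692%, and 69 lower, 0.391%), while edgeR still called 0 of 17625, with 1527 at an unadjusted p under 0.05 (4.73% higher, 3.94% lower). The limma-voom fit also called 0 there. Leaving out both D pairs gave 192 DESeq2 calls (87 higher, 0.501%, and 105 lower, 0.605%), 0 by edgeR with 1336 at an unadjusted p under 0.05 (3.46% higher, 4.24% lower), and 1 by limma-voom, Tnc. Of the 191 DESeq2 calls without siNT D, 181 (94.8%) had the opposite sign in siNT D. Of the 192 without both D pairs, 137 (71.4%) had the opposite sign in siNT D and 54 (28.1%) in siYBX3 D. Over the 12909 genes above 1 CPM, siNT D shared its sign with siNT C in 49.8% and with siYBX3 B in 55.7%. It did so with siYBX3 C in 41.3% and with siYBX3 D in 20.4%. The calls without siNT D are thus largely genes for which that pair went the other way. Most calls without both D pairs had the same sign in siYBX3 D. These DESeq2 and limma-voom fits were added after the values were seen. DESeq2 and edgeR gave different counts on the same 3 or 4 pairs, and calls named below as DESeq2 calls were not edgeR calls.

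**Figure D1:**
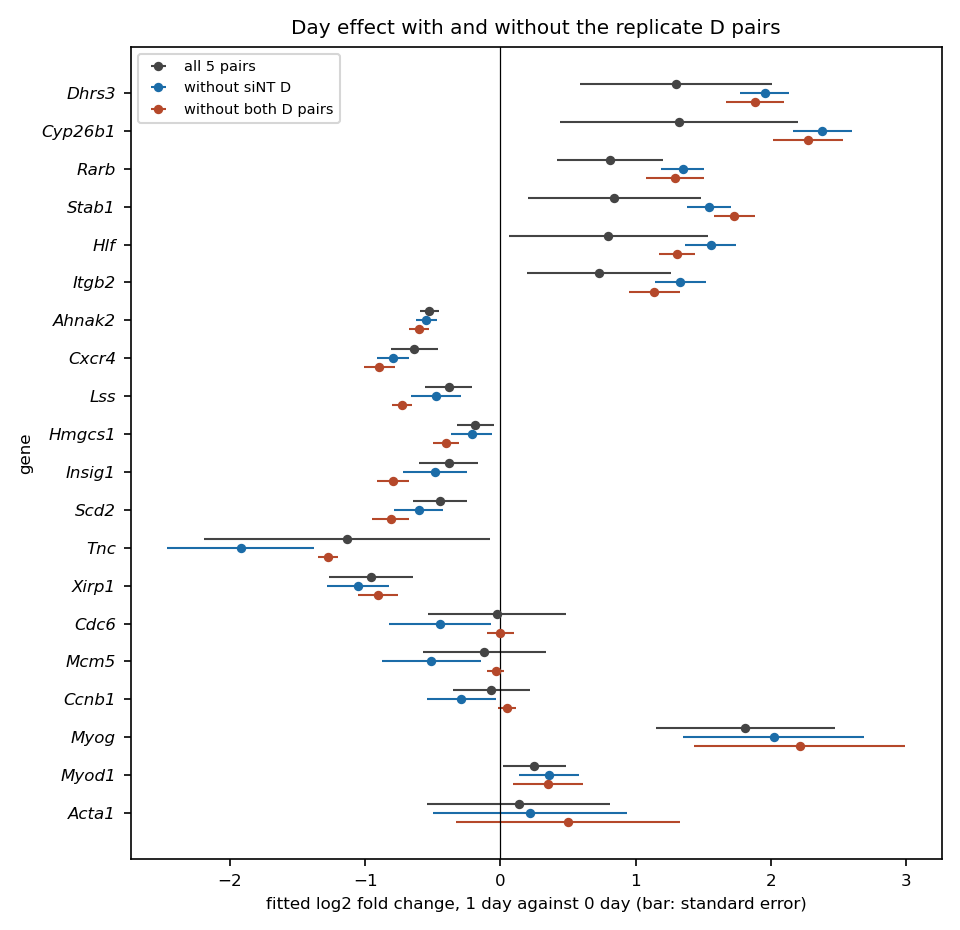
Fitted edgeR log2 fold change of 20 genes, 1 day against 0 day, over all 5 pairs (grey), without the siNT D pair (blue) and without both D pairs (red). Bars are standard errors. The bars of the retinoid genes Dhrs3, Cyp26b1 and Rarb shrink and their values move up once siNT D is left out, while Ahnak2 stays close to -0.53.

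Tnc, the matrix glycoprotein tenascin-C, differed in opposite directions between the D pairs. At 0 day it was 562, 540 and 526 CPM in siNT C, siYBX3 B and siYBX3 C, and at 1 day 257, 224 and 198 CPM. These 3 pairs were close to each other, with a log2 fold change of -1.27 ± 0.07 (adjusted p = 0.0658 by edgeR and 7.06e-47 by DESeq2, 3 pairs). In siYBX3 D it went from 341 to 16.3 CPM, and in siNT D from 25.4 to 360 CPM. With siYBX3 D kept and siNT D left out, Tnc was -1.92 ± 0.54 (adjusted p = 0.4345 by edgeR and 0.182 by DESeq2). Neither method called it there. Over all pairs it was -1.14 ± 1.06 (adjusted p = 0.9996 by edgeR). The small DESeq2 p-value thus describes the 3 pairs alone, in a fit added after the values were seen. The library labelled siNT D at 0 day was far below the 3 unpaired 0 day libraries, which held 502.5 to 590.3 CPM by library total.

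Cell cycle genes showed no common difference between the days. The 50 genes of DNA replication and S phase had a median log2 fold change of -0.00 over the 5 pairs and the 51 mitosis genes one of -0.10, beside -0.00 over all genes. None of either list was called. Within the D pairs, in contrast, the lists differed as a whole and in opposite directions. Over all genes, 11.6% were more than 1.3-fold higher in siNT D and lower in siYBX3 D, and 10.7% the reverse. All 50 and all 51 were more than 1.3-fold higher at 1 day in siNT D (19.6% of all genes were), with medians of 1.06 and 0.85. All 50 and all 51 were more than 1.3-fold lower in siYBX3 D (19.1% of all genes were), with medians of -1.21 and -1.42. In siNT C, siYBX3 B and siYBX3 C the medians lay between -0.09 and 0.09. A single pair has 1 library for each day, so no test applies within it.

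The levels show which libraries carried this. Mcm5, a subunit of the replicative helicase, was 236, 158 and 161 CPM at 0 day and 226, 166 and 149 CPM at 1 day in siNT C, siYBX3 B and siYBX3 C. In siNT D it was 58.8 CPM at 0 day and 166 CPM at 1 day, and in siYBX3 D 95.7 CPM and 21.3 CPM. The low libraries were siNT D at 0 day and siYBX3 D at both days, lowest at 1 day. Ccnb1 (cyclin B1) gave the same order, with 69.1 and 124 CPM in siNT D, 74.5 and 27.9 CPM in siYBX3 D, and 115 to 176 CPM in the other 6 libraries. Cdc6, which loads the helicase, differed by log2 values of 1.99 in siNT D and -2.34 in siYBX3 D, against -0.29 to 0.14 in the other pairs.

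Cdkn1a, the CDK inhibitor p21, was 274 CPM at 0 day and 138 CPM at 1 day in siNT D, and 273 and 366 CPM in siYBX3 D. It was 124 and 119 CPM in siNT C, 303 and 311 CPM in siYBX3 B and 290 and 258 CPM in siYBX3 C, so siYBX3 D at 0 day lay no higher than the other YBX3 KD libraries of that day. The list of 23 CDK inhibitors and cell cycle exit genes had pair medians of only -0.04 to 0.10. Leaving out siNT D moved the S phase median to -0.25 and the mitosis median to -0.32, and leaving out both D pairs moved them to 0.01 and 0.00. The interaction of day with replicate D was called for 0 genes by edgeR (153 at an unadjusted p under 0.05) and for 2 by DESeq2, Rps6-ps4 and Npcd. That term takes the mean of the D pairs, so genes that differed in opposite directions in siNT D and siYBX3 D largely cancel in it.

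**Figure D2:**
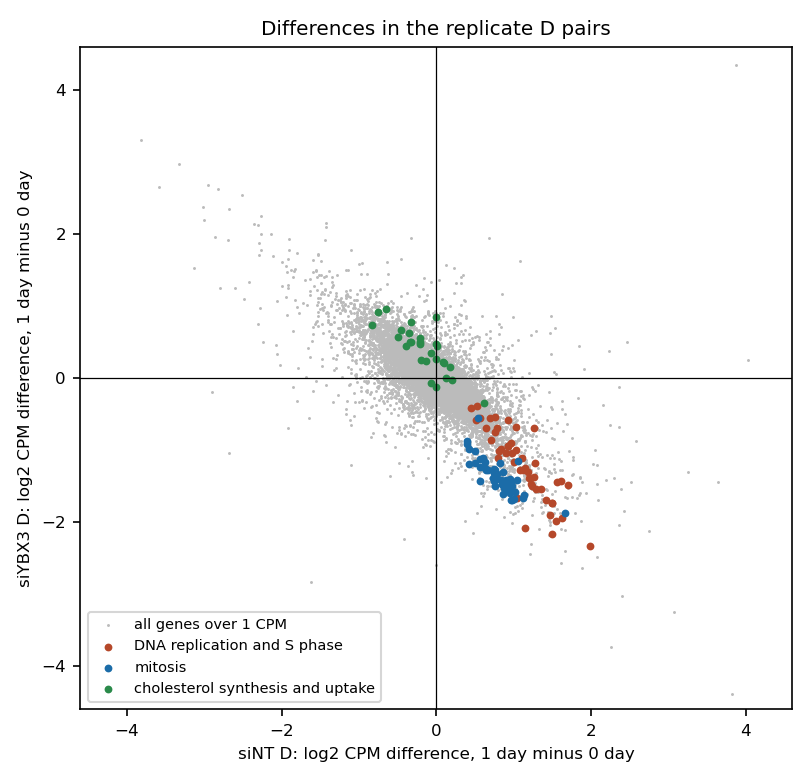
Log2 CPM difference (1 day minus 0 day) in the siNT D pair (x axis) and in the siYBX3 D pair (y axis) for 12909 genes with a mean above 1 CPM, of which 26 lie outside the axes. The S phase genes (red) and mitosis genes (blue) all lie at the lower right, higher in siNT D and lower in siYBX3 D.

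Promoter letters are shown for the cell cycle lists because their members differed together in the D pairs. In the 250 bases upstream of the annotated start, an E2F-type motif (TTTCCCGC, TTTCGCGC, TTTGGCGC or TTTGCCGC, either strand) was found in 8% of 50 S phase genes and in 3.06% of 13021 tested protein-coding genes. The CHR motif TTTGAA, either strand, was found in 19.6% of 51 mitosis genes and in 12.5% of all. The windows below are from GRCm39, 5′ to 3′ on the gene's strand, with the match nearest the start in capitals. They lie at chr8:75835977-75836006 (Mcm5, plus strand) and chr10:69188796-69188825 (Cdk1, minus strand).
Mcm5: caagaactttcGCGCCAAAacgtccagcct
Cdk1: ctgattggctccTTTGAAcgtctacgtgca

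The capitals in Mcm5 mark the reverse complement of TTTGGCGC, the nearer of 2 matches. The other, TTTCGCGC, overlaps it and begins in the lower case letters before it. Cdk1, the kinase that drives entry into mitosis, differed by log2 values of 1.04 in siNT D and -1.42 in siYBX3 D and by -0.23 to 0.06 in the other pairs.

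Cholesterol synthesis and uptake genes were lower at 1 day in siNT C, siYBX3 B and siYBX3 C. More than 1.3-fold lower were 15 of 30 in siNT C (12.7% of all genes were), 23 of 30 in siYBX3 B (12.9%) and 17 of 30 in siYBX3 C (13.6%), with medians of -0.39, -0.66 and -0.43. The D pairs differed from these. The median was -0.16 in siNT D, where 7 of 30 were lower (21.1%), and 0.45 in siYBX3 D, where 16 of 30 were higher (17.2%). Over the 5 pairs the median was -0.24, no member was called by edgeR, and 2 of 30 were at an unadjusted p under 0.05 and lower, against 1.86% of all genes.

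Without both D pairs, the median of the 29 members then tested was -0.45. DESeq2 called 20 of the 29 lower and 0 higher, where 0.605% of 17366 genes were called lower. edgeR called 0, with 23 of 29 (79.3%) lower at an unadjusted p under 0.05 against 4.24% of all genes. With siYBX3 D back in the fit, only 2 of 30 were DESeq2 calls, so the count rests on leaving out that pair as well.

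Insig1, the sterol-regulated anchor that holds SREBPs back, was 80.6, 57.5 and 57.5 CPM at 0 day in siNT C, siYBX3 B and siYBX3 C, and 50.4, 26.2 and 38.5 CPM at 1 day. These levels did not overlap between the days, which was not counted over all genes. By fold alone, Insig1 was among the 218 genes (1.31%) more than 1.3-fold lower in all 3 pairs, beside 194 (1.17%) higher. It was 94.9 and 95.7 CPM in siNT D and 78.9 and 108 CPM in siYBX3 D, so neither D pair was lower at 1 day. Its log2 fold change was -0.38 ± 0.22 over 5 pairs and -0.80 ± 0.12 without the D pairs (adjusted p = 0.261 by edgeR and 2.64e-06 by DESeq2).

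Lss (lanosterol synthase) was -0.73 ± 0.07 and Idi1 (an isomerase of the isoprenoid branch) -0.63 ± 0.09 without the D pairs. Srebf2, which encodes SREBP2 itself, was -0.43 ± 0.08 in the same fit (adjusted p = 0.312 by edgeR and 0.00054 by DESeq2). Of the desaturases, outside this list, Scd2 was -0.81 ± 0.14 and Fads2 -0.60 ± 0.06 there.

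The sterol genes are shown with promoter letters since they differed together in 3 pairs. The CCAAT motif, on either strand, lay in the 250 upstream bases of 70% of the 30 genes and of 37.2% of all 13021. It was not particular to this list, with 50% of the 50 S phase genes and 47.1% of the 51 mitosis genes. In these windows the capitals mark ATTGG, its reverse complement, at chr13:120151885-120151914 (Hmgcs1, plus strand), chr15:59186807-59186836 (Sqle, plus strand) and chr5:28276182-28276211 (Insig1, plus strand).
Hmgcs1: ctgagtcccgggATTGGcagaggtagccgc
Sqle: gtgcgcgctctcATTGGttcggacggcgtg
Insig1: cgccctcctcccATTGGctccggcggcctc

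**Figure D3:**
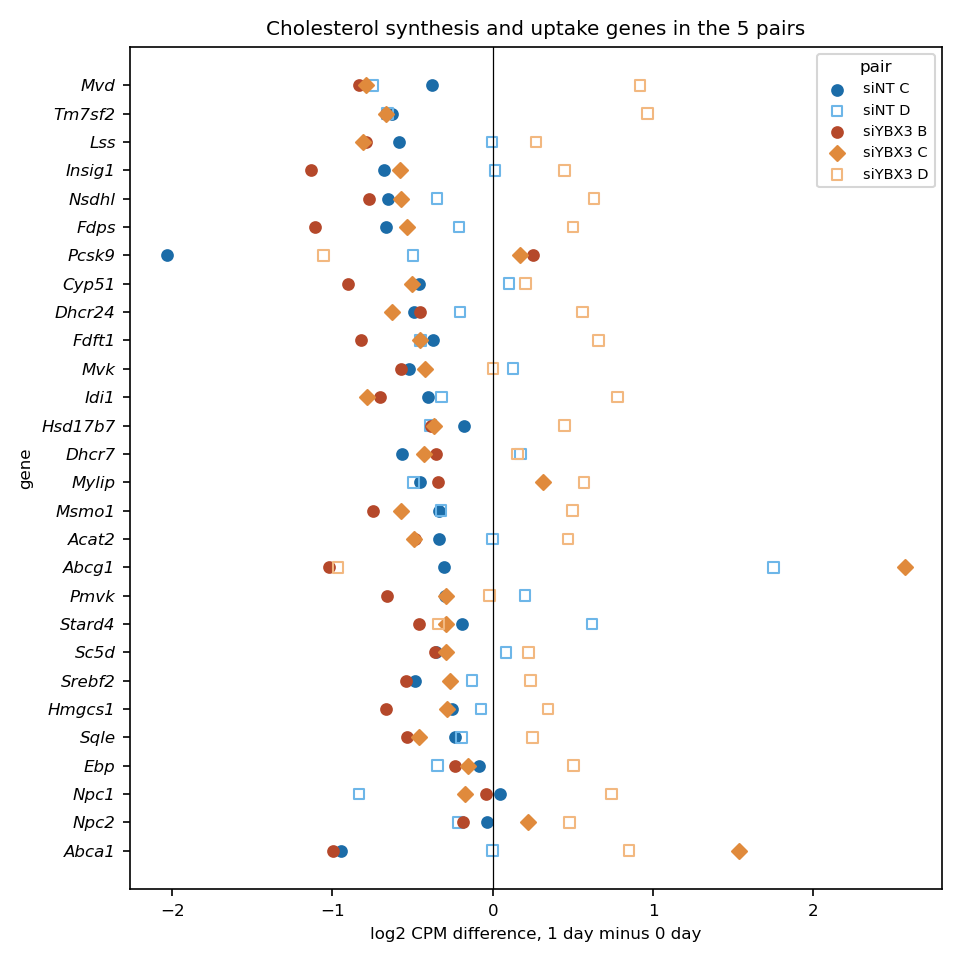
Log2 CPM difference (1 day minus 0 day) of 28 tested cholesterol synthesis and uptake genes in each pair; filled symbols are siNT C, siYBX3 B and siYBX3 C, and open squares are the D pairs. Most filled symbols lie left of 0, and most siYBX3 D squares lie right of it.

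Muscle genes showed no common difference either. Myog was 0.195, 0.124, 0.252, 0.179 and 0.209 CPM at 0 day in siNT C, siNT D, siYBX3 B, siYBX3 C and siYBX3 D. At 1 day it was 0.428, 0.0519, 0.177, 3.42 and 0.539 CPM. It passed 1 CPM only in siYBX3 C at 1 day. Its log2 fold change was 1.81 ± 0.66 over 5 pairs, which did not pass edgeR's test, and 3 of 5 pairs were higher. Myod1 was 0.597 to 3.32 CPM over the 10 libraries and differed by 0.25 ± 0.23.

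The 40 tested sarcomere and contraction genes had a median of -0.04 over the 5 pairs. More than 1.3-fold higher were 28 of 40 in siYBX3 C (13.7% of all genes were), with a median of 1.06. More than 1.3-fold lower were 28 of 40 in siYBX3 B (12.9%), with a median of -0.89. The pair medians were -0.07 in siNT C, -0.29 in siNT D and -0.16 in siYBX3 D.

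Acta1, skeletal alpha-actin, was 5.16, 0.618, 8.57, 4.34 and 3.59 CPM at 0 day in siNT C, siNT D, siYBX3 B, siYBX3 C and siYBX3 D, and 4.71, 0.545, 3.09, 33.7 and 2.16 CPM at 1 day. Of the 5 pairs 1 was higher, siYBX3 C, which also had the highest level of all. Ckm, muscle creatine kinase, was 2.49 CPM in siYBX3 C at 1 day and 0.0447 to 0.796 CPM in the other 9 libraries. Myh1, a fast myosin heavy chain, was 56.6 CPM there, against 0.587 to 22.2 CPM elsewhere. Among the 26 tested myogenic regulators and fusion genes Myog was higher and Myf6 and Chrna1 were lower at an unadjusted p under 0.05, and none was called. Over all genes 0.747% were higher and 1.86% lower at that threshold.

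Mymk, the fusogen myomaker, was 0.0779 to 3.66 CPM and was lower in 4 of 5 pairs (-0.56 ± 0.37). Chrng, the fetal subunit of the acetylcholine receptor, differed by -0.64, -0.97, -1.80, 1.34 and 0.65 in the order siNT C, siNT D, siYBX3 B, siYBX3 C, siYBX3 D. Promoter letters are shown here for the E-box CAGCTG, a site type of the myogenic factors. It lay in the 250 upstream bases of 30% of 40 sarcomere genes, 15.4% of 26 myogenic regulators and fusion genes and 11.1% of all 13021. Windows are given for 1 gene of each list, at chr8:124621718-124621747 (Acta1, minus strand) and chr1:87133389-87133418 (Chrng, plus strand).
Acta1: gggaggggcagaCAGCTGgggatactctcc
Chrng: gcagtggtcagaCAGCTGgtggggccagct

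**Figure D4:**
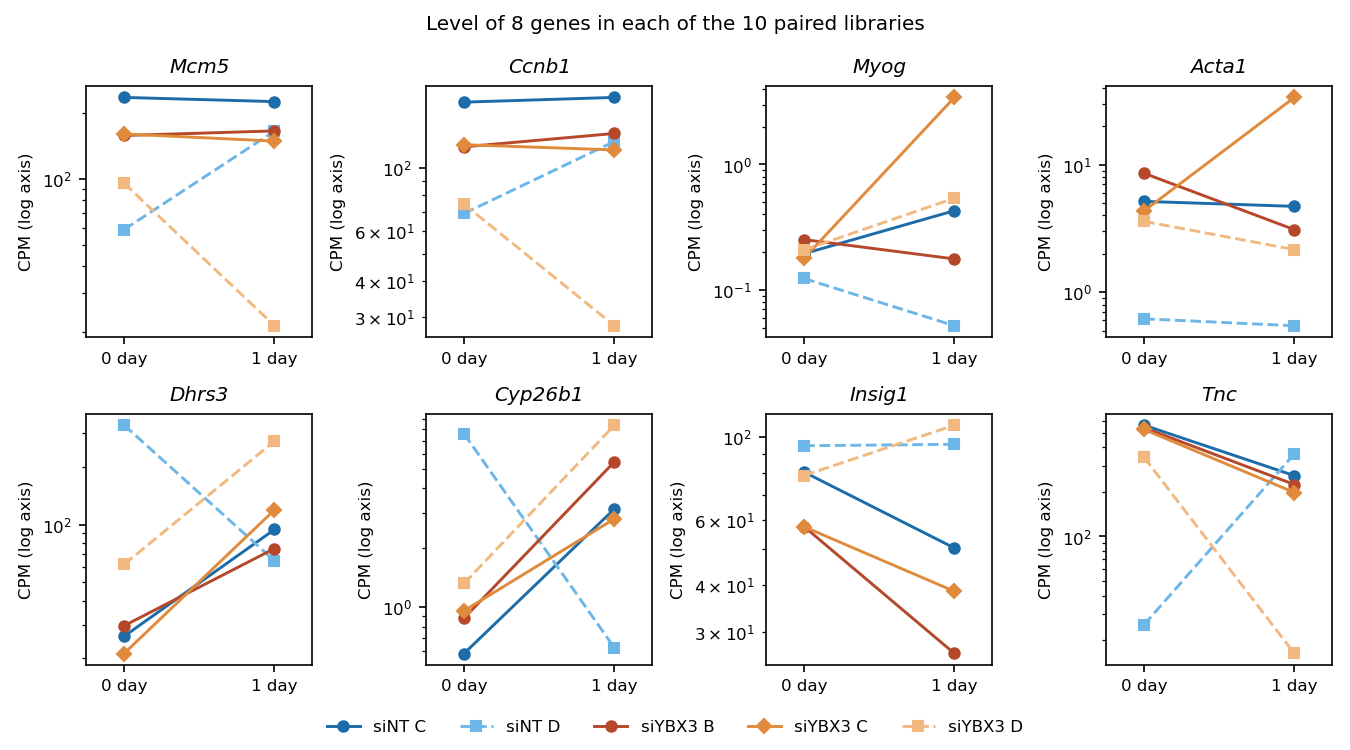
Level of 8 genes in CPM (log axis) at 0 day and 1 day, with a line for each pair; dashed lines are the D pairs. Dhrs3, Cyp26b1 and Tnc cross over in siNT D, Mcm5 and Ccnb1 separate in the D pairs only, Insig1 is lower at 1 day in the 3 solid lines, and Myog and Acta1 are higher at 1 day in siYBX3 C.

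Other lists differed by pair. Interferon response genes were more than 1.3-fold higher in 27 of 33 cases in siYBX3 C (13.7% of all genes were) and in 17 in siYBX3 D (17.2%), and lower in 19 in siNT D (21.1%). Their pair medians were 0.04, -0.45, -0.01, 0.66 and 0.46 in siNT C, siNT D, siYBX3 B, siYBX3 C and siYBX3 D. Psmb8, an immunoproteasome subunit, was 0.760 CPM at 0 day and 3.45 CPM at 1 day in siYBX3 C. ATF4 targets, the genes of the amino acid response, were higher in 14 of 28 cases in siYBX3 B (11.9% of all genes were) and lower in 14 in siNT D (21.1%). Without siNT D, 10 of 28 were higher at an unadjusted p under 0.05 by edgeR (4.73% of all genes), and DESeq2 called 4 higher (0.692% of all genes), Aldh1l2 (0.82), Trib3 (0.57), Ddit4 (0.57) and Pck2 (0.34), named after their values were seen. Trib3, a pseudokinase induced by ATF4, was higher in the 4 pairs by 0.41 to 0.76 and differed by -0.41 in siNT D.

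Selenoproteins and fatty acid oxidation genes were examined after the calls without the D pairs had been seen. Selenow was 53.8, 57.2, 48.5 and 72.2 CPM at 0 day and 95.4, 109, 125 and 160 CPM at 1 day in siNT C, siYBX3 B, siYBX3 C and siYBX3 D. In siNT D it was 157 CPM at 0 day and 70.9 CPM at 1 day, the reverse order. Without siNT D its log2 fold change was 1.06 ± 0.10 (adjusted p = 0.0911 by edgeR and 3.85e-15 by DESeq2). Gpx1, glutathione peroxidase 1, was the other of 19 tested selenoproteins that DESeq2 called there (0.42 ± 0.07), while Gpx4 was 0.27 ± 0.11 and was not called. Cpt1a, which commits fatty acids to mitochondrial oxidation, was 0.46 ± 0.08, and Angptl4, a lipase inhibitor induced by PPARs, was 0.51 ± 0.11. Both were among the 3 of 20 such genes that DESeq2 called there, with Acadl, a long-chain acyl-CoA dehydrogenase. Over all genes that fit called 0.692% higher and 0.391% lower, and both lists were made after such calls were seen.

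**Figure D5:**
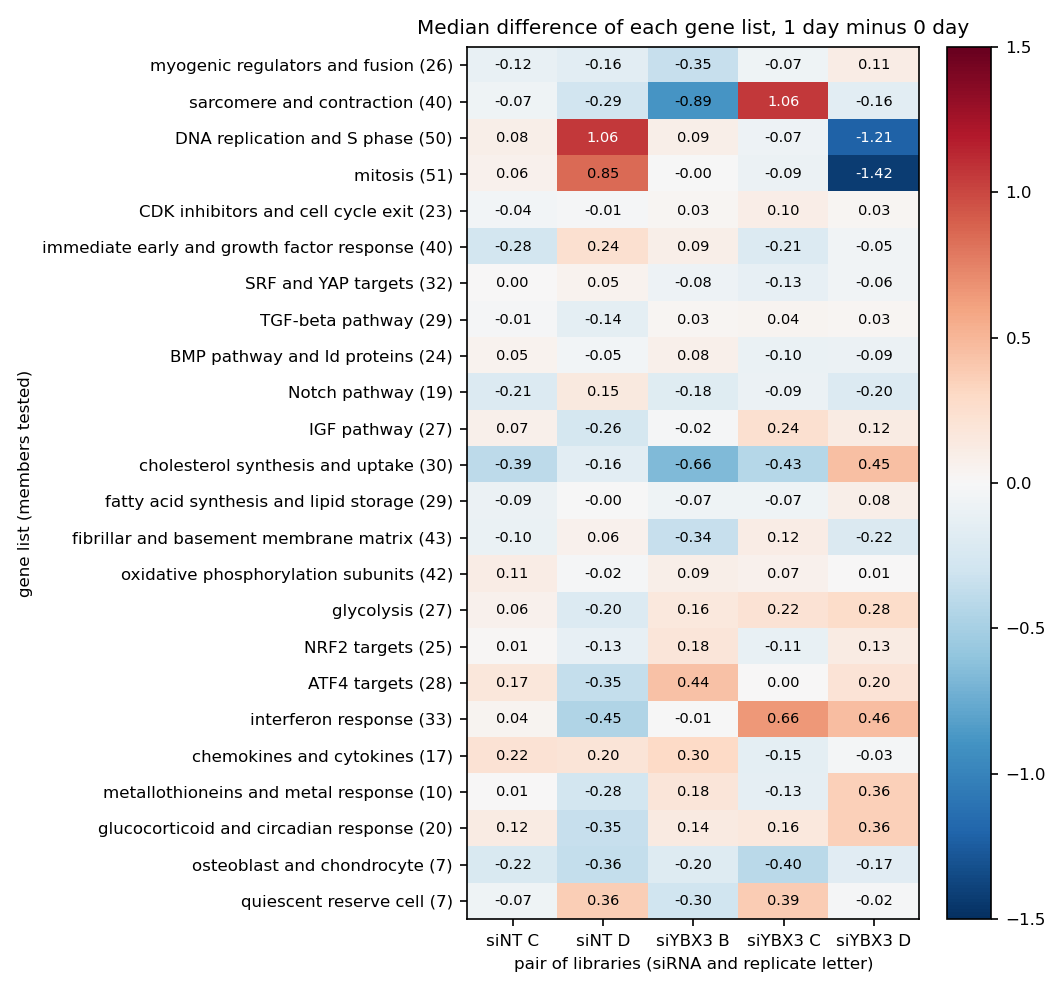
Median log2 CPM difference (1 day minus 0 day) of each gene list with at least 7 tested members, in each of the 5 pairs; the number of tested members is in brackets. The S phase and mitosis rows are strongly positive in siNT D and strongly negative in siYBX3 D, the cholesterol row is negative except in siYBX3 D, and the sarcomere row is positive only in siYBX3 C.

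The difference of the day effect between YBX3 KD and control KD pairs was not resolved. edgeR called 0 genes for the interaction (smallest adjusted p = 0.485, 1017 at an unadjusted p under 0.05). DESeq2 called 6: ENSMUSG00000040715, Gm10146, Kpna2rt, Gm1972, Eif4a-ps4 and Gpx4-ps2. Of these, Eif4a-ps4 and Gpx4-ps2 carry pseudogene symbols, which can share reads with their parent genes. ENSMUSG00000040715 ranged from 0 to 157 counts over the 10 libraries, Gm10146 from 0 to 279 and Gm1972 from 0 to 82. Within the 2 control KD pairs edgeR called 0 genes (540 at an unadjusted p under 0.05), and within the 3 YBX3 KD pairs 0 (867). The glutamine transporter gene Slc1a5 was 24.8 to 31.7 CPM in control KD at 0 day and 29.4 to 31.9 CPM at 1 day, and 21.9 to 25.7 and 23.1 to 29.7 CPM in YBX3 KD. Its log2 fold change between the days was 0.08 ± 0.08 over the 5 pairs. Ybx3 differed by 0.15 ± 0.14, with pair values from -0.38 in siYBX3 D to 0.72 in siYBX3 C.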

How the data were processed

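The authors mapped stranded mRNA reads with Salmon to GRCm39, and the deposited table holds estimated counts per gene, which are whole numbers and not normalized. How the estimates were summed by gene and made whole is not given in the sources used here. Genes were kept with filterByExpr on the 4 groups, scaled by TMM and tested in R 4.3.3 with edgeR 4.0.16 (quasi-likelihood test, pair as a block, Benjamini-Hochberg adjustment over all tested genes). Alternatives used DESeq2 1.42.0 and limma 3.58.1. Symbols and positions are from GENCODE vM39, and 54969 of 55642 identifiers matched. Promoter letters were read from GRCm39 with Python 3.11.15.

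Residuals of same-letter libraries correlated at 0.178 to 0.558, the best match in 5 of 5, against -0.328 to 0.0529 by title number. For siYBX3 B the margin over another letter was small, 0.267 against 0.247. The residuals were centred within each group. The 2 control KD libraries of 1 day therefore mirror each other, and their matches are not separate checks. Replicates of a group differed beyond counting error (chi-square per degree of freedom 44.2 to 276). Nothing says whether replicates are separate cultures beyond the title's biological replicate, so p-values measure the spread between these samples.

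The pairs, gene lists and named genes were chosen with earlier results of these data known. The named genes were every tested myogenic regulator, genes the study measures or mentions, and the 2 most abundant members of each list, since no gene was called. Others were named after their values were seen, including the lists of retinoic acid, selenoprotein and fatty acid oxidation genes. The fits were tested on simulated counts. The study's siRNA contrasts and some genes are not reported here.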

Additional observations from a re-analysis of the deposited data

Results flagged for a closer look

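Among the 5 pair differences of 180 named genes and the 5 pair medians of 26 lists, 22 of 206 items (10.7%) had a pair that stood apart by Dixon's criterion (critical value 0.71 for 5 values), where chance flags about 1 in 20. The pair was siNT D in 16 of the 22. Many of the named genes were chosen for such values, so the share is a description.

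In siNT D the log2 difference was -3.58 for Cyp26b1, -3.01 for Hlf, -2.48 for Stab1, -2.35 for Dhrs3, -1.90 for Itgb2 and -1.60 for Foxf1, a forkhead factor. It was -1.28 for Adam22, -1.14 for Selenow, -0.98 for Rarb, -0.93 for Htra1, a secreted serine protease, and -0.68 for Nrip1, a nuclear receptor corepressor. It was -0.42 for Pax3, -0.40 for Rarg and -0.27 for Gpx1. The other 4 pairs were all positive for each of these 14 genes. Myf5, a myogenic regulator, was 0.48 in siNT D and -0.60 to -0.33 in the others, and the sterol carrier Stard4 was 0.62 against -0.46 to -0.19.

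In siYBX3 D, Sox9 was 0.98 and Six4 0.20, and the lipid genes Mvd and Pcyt2 were 0.92 and 0.25. The others ranged from -0.84 to -0.38 for Mvd and from -0.66 to -0.49 for Pcyt2. Mef2a was -0.66 in siYBX3 B, and Cox6a1 was -0.33 in siNT C.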

How the results depend on the processing

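No gene was called by edgeR over the 5 pairs with another scaling (relative log expression), with either other filter on low counts, with the legacy fit, at either stricter threshold, or with any 1 pair left out (0 to 0 called). DESeq2 called 5 genes, all 5 lower. Alternatives added after the values were seen gave 191 DESeq2 calls without siNT D (122 higher, 69 lower), 192 without both D pairs (87 higher, 105 lower), and 1, lower, by limma-voom without both D pairs (Tnc). DESeq2 called 6 genes for the siRNA by day interaction and 2 for the interaction with replicate D, where edgeR and limma-voom called 0.

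Genes at an unadjusted p under 0.05 numbered 432, 1190 by limma-voom, and 246 to 1527 with a pair left out. The lowest count was without siYBX3 B (251 without siYBX3 C), the highest without siNT D (663 without siYBX3 D). Without the replicate block there were 228 on 10 libraries and 454 on 13, with 0 called. Pairing by title number gave 1082 and the letter as block on 13 libraries 898, again with 0 called. Of 180 named genes, 88 changed sign under at least 1 of 20 settings. Of 208 list medians recomputed, 3 moved by more than 1 SD of the pair values. That SD is taken over the list's own 5 pair medians, so leaving out 1 pair was unlikely to move a median that far. The count is therefore no measure of how stable the lists are. Precision was limited by 5 pairs, and within a pair by 1 library for each day.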

Other observations

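Of the genes of growth factor and BMP signalling, 3 are given here. Igf2, an autocrine growth factor of myoblasts, was 3.04 CPM at 0 day and 13.9 CPM at 1 day in siYBX3 C, and 0.124 and 0.623 CPM in siNT D. It differed by -0.07, -0.55 and -0.65 in siNT C, siYBX3 B and siYBX3 D. Id1 and Id3, inhibitors of myogenic bHLH factors and targets of BMP signalling, differed by 1.34 and 1.39 in siNT D and by -1.05 and -1.25 in siYBX3 D. In the other 3 pairs they lay between -0.46 and 0.43. The list of 24 tested BMP pathway genes as a whole had pair medians of -0.10 to 0.08. Glycolysis genes, 27 in all, had a median of 0.11 over the 5 pairs, with -0.20 in siNT D and 0.06 to 0.28 in the others. Without siNT D, 10 of 27 were higher at an unadjusted p under 0.05 and 0 lower by edgeR, where 4.73% of all genes were higher, and edgeR called none. DESeq2 called 3 higher there, beside 0.692% of all genes: Pdk1 (0.63), which restrains pyruvate entry into mitochondria, Pfkfb3 (0.33) and Pfkl (0.27), named after their values were seen. Igf2 and Id1 were chosen after their values were seen.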
